A study of Mus musculus with 5 samples.

Results

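The Thrsp-high cells were the tumor epithelial cells of mouse mammary tumors with the highest joint level of 4 transcripts, Thrsp, G0s2, Scrg1 and Scgb1c1. A cell was taken as epithelial when it held at least 5 UMIs (unique molecular identifiers, 1 per captured RNA molecule) of Epcam, Krt8 and Krt18 together and 0 UMIs of Ptprc, the pan-leukocyte gene. Each epithelial cell was scored by the mean over the 4 genes of the natural log of 1 plus its UMIs per 10000 gene UMIs, and the top 5% over all tumors pooled were the Thrsp-high cells. They numbered 671 of 13412 epithelial cells, among 19533 cells kept of 30340 deposited, which held at least 2500 gene UMIs, with the highest kept at 27472, and at most 20% mitochondrial UMIs. The 4 genes chose the cells, so their levels in the cells are given as a description. The other 12741 epithelial cells were the comparison, always within the same tumor.

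The tumors came from MMTV-PyMT mice, strain FVB/N-Tg (MMTV-PyVT)634Mul/J, in which the viral MMTV promoter, active mainly in the mammary gland, expresses a polyomavirus oncoprotein, so every tumor of both groups carried that transgene. Mice received 5 mg/kg of either an isotype control (mouse IgG2a, clone C1.18.4, 6 tumors in 2 pools) or B20-4.1.1, an antibody that blocks mouse VEGF-A (9 tumors in 3 pools), by intraperitoneal injection 2 times a week for 6 weeks from 7 weeks of age. Sorted viable cells (DAPI-) of 3 tumors, each of a different mouse, were tagged with oligonucleotides and run together as 1 pool on a droplet 3' assay, so a pool held 1 treatment, and pool and treatment cannot be told apart. Isotype tumors are written I1-1 to I1-3 and I2-1 to I2-3, and B20-4.1.1 tumors B1-1 to B1-3, B2-1 to B2-3 and B3-1 to B3-3, where the number before the hyphen is the pool. A tumor held 4014509 to 23726246 gene UMIs, no cell barcode was shared between tumors of a pool, and 94 barcodes occurred in more than 1 matrix of different pools. UMI counts were summed per tumor over the Thrsp-high and over the other epithelial cells for the 12 tumors with at least 10 Thrsp-high cells (6 per treatment), which gave 146518 to 1725183 UMIs and 5819216 to 16914631 UMIs. B1-3, B2-1 and B2-3 held fewer and were not in that fit.

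As background, Thrsp (Spot 14) is a thyroid hormone-responsive nuclear and cytosolic protein found where fatty acids are made from glucose, in liver, fat and the lactating mammary gland. G0s2 encodes an inhibitor of adipose triglyceride lipase, the enzyme that starts the breakdown of stored fat. Scrg1 encodes a small secreted protein first found in prion-infected brain and also known from cartilage, and Scgb1c1 encodes a secretoglobin, one of a family of small secreted proteins. In fatty acid synthesis, citrate leaves the mitochondrion and is cleaved by ATP citrate lyase (Acly), acetyl-CoA carboxylases make malonyl-CoA, fatty acid synthase (Fasn) builds palmitate, and stearoyl-CoA desaturases and elongases modify it.

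In the GENCODE vM21 annotation of GRCm38 (the mm10 build), Thrsp lies on the minus strand at chr7:97412938-97417730, G0s2 on the minus strand at chr1:193272161-193273217, Scrg1 on the plus strand at chr8:57455923-57477585 and Scgb1c1 on the plus strand at chr7:140845547-140846769, and all 4 are protein coding. The 250 bases before the RefSeq start (GRCm38.p6) are shown for Thrsp and G0s2, which made up most of the score, and for Insig1, the gene of the cholesterol list with the largest difference below. They span chr7:97417551-97417800 on the minus strand, chr1:193273189-193273438 on the minus strand and chr5:28071162-28071411 on the plus strand. Capitals mark CCAAT boxes (CCAAT or, on the other strand, ATTGG) and the E-box CACGTG, 5′ to 3′.
Thrsp: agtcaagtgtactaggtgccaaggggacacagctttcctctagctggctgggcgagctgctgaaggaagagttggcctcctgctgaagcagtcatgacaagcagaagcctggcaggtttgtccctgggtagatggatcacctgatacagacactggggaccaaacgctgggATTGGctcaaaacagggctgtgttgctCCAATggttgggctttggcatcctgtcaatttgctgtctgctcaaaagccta
G0s2: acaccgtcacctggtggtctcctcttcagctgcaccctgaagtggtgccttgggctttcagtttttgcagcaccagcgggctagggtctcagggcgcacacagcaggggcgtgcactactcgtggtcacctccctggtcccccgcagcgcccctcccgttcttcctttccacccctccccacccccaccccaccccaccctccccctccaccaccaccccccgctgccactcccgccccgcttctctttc
Insig1: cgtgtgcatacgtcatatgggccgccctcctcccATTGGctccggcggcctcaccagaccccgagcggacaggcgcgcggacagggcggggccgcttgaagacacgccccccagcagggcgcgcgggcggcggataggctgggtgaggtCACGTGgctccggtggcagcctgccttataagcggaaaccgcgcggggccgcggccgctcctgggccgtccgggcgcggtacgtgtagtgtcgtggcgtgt
The Thrsp window held CCAAT boxes that start 79 and 52 bases before the RefSeq start, where GENCODE places the Thrsp start 180 bases further upstream. The Insig1 window held a CCAAT box 216 bases and an E-box 101 bases before the start, and none of the letters searched was in the G0s2 window. Of 32851 RefSeq promoter windows of this length, 33.8% held CCAAT, 6.02% CACGTG, 1.05% the sterol element TCACNCCAC and 12.4% TATAAA, each on either strand. Of the 38 lipid list genes higher in Thrsp-high cells (below), 31 could be matched, to 39 windows. Of these windows, 19 (48.7%) held CCAAT, 4 (10.3%) CACGTG, 1 (2.56%) TCACNCCAC and 2 (5.13%) TATAAA. The difference from all windows was not tested.

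The score of the Thrsp-high cells ran from 1.456 to 2.82 with a median of 1.64, and the median of the other epithelial cells was 0.396. The cut fell within a continuous range. The lowest score inside was 1.45595 and the highest outside 1.45589, and the fifth cell inside and outside scored 1.459 and 1.455. At the other end, 3200 epithelial cells (23.9%) scored 0. Thrsp gave 41.7% and G0s2 45.3% of the score of the Thrsp-high cells, Scrg1 7.03% and Scgb1c1 5.91%. UMIs of Thrsp and G0s2 together were in 670 of the 671 cells. UMIs of 2 of the 4 genes were in 252 cells (37.6%), of 3 genes in 272 (40.5%) and of all 4 in 147 (21.9%), so Scrg1 and Scgb1c1 marked only some of them.

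Thrsp stood at 23.4 UMIs per 10000 in Thrsp-high cells and 3.02 in the other epithelial cells, and G0s2 at 25.5 and 3.54. Scrg1 stood at 0.954 and 0.244, and Scgb1c1 at 0.760 and 0.15. The share of cells with a UMI was read beside 2463 leukocytes (cells with a Ptprc UMI and no UMI of the 3 keratin and Epcam genes), which should lack Thrsp, Scrg1 and Scgb1c1. Leukocytes can express G0s2, so their share is no background for that gene. With every cell thinned to 2500 UMIs, Thrsp was seen in 93.4% of Thrsp-high, 30.2% of other epithelial cells and 2.88% of leukocytes, and unthinned in 99.9%, 50.3% and 5.16%. Thinned, G0s2 was seen in 96.9%, 36.8% and 4.06%, Scrg1 in 19.1%, 4.79% and 0.162%, and Scgb1c1 in 14.2%, 3.03% and 0.0406%. Unthinned, these shares were 100%, 58.7% and 6.46% for G0s2, 44.3%, 13.2% and 0.325% for Scrg1, and 40.2%, 9.88% and 0.0812% for Scgb1c1. Median depth was 11757, 8535 and 4391 UMIs per cell in the 3 sets. Thrsp was thus detected in many of the other epithelial cells as well, above its share in leukocytes.

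The makeup of the score differed among tumors. Over the 12 tumors with at least 10 Thrsp-high cells, Thrsp in those cells ranged from 14.5 UMIs per 10000 in I1-3 to 38.6 in B3-1 and 59.0 in B2-2. The same cells of B3-1 and B2-2 held little Scrg1, 0.177 and 0.160 UMIs per 10000, against 1.12 in I2-1 and 1.96 in B3-3. Scgb1c1 ranged from 0.138 in B3-1 to 2.02 in B1-2. G0s2 varied less, from 16.1 in B1-2 to 32.9 in I2-2.

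Each score gene was then tested in cells chosen without it. When cells were selected as the top 5% on the other 3 genes, the gene left out was higher in the selected cells for all 4 genes (exact sign-flip test over tumors, two-sided, adjusted over 4 genes). On the scale of the score, the mean difference was 0.949 ± 0.252 (SD) for Thrsp, higher in 11 of 11 tumors (adjusted p = 0.0013, exact), where the unadjusted p of 0.000977 is the smallest that 11 tumors allow. For G0s2 it was 1.00 ± 0.312, higher in 13 of 13 tumors (adjusted p = 0.000977, exact). Scgb1c1 differed by 0.163 ± 0.0813, higher in 12 of 12 tumors (adjusted p = 0.000977, exact), and Scrg1 by 0.145 ± 0.108, higher in 10 of 12 tumors (adjusted p = 0.00342, exact). With cells thinned to 2500 UMIs the differences were 0.830, 0.857, 0.146 and 0.0684, in the same order, and the last had an adjusted p of 0.04 (exact). The 4 genes had been put together with results of these cells known, so this shows their joint variation within tumors and is not independent of that choice.

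**Figure D1:**
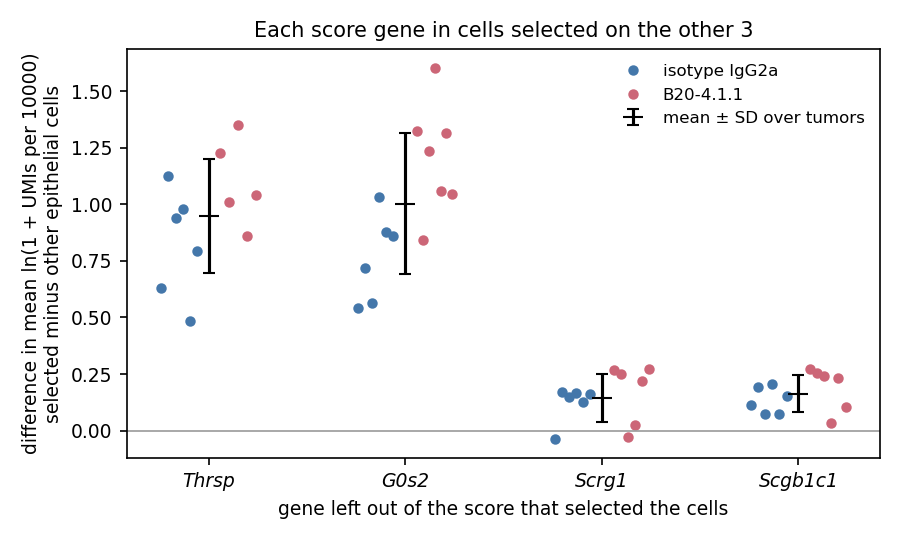
Difference in the mean ln(1 + UMIs per 10000) of each score gene (y axis) between epithelial cells selected on the other 3 genes and the remaining epithelial cells of the same tumor, 1 point per tumor, colored by treatment, with the mean and SD over tumors. Thrsp lies between 0.483 and 1.35 and G0s2 between 0.543 and 1.60, Scrg1 and Scgb1c1 lie at or below 0.274, and Scrg1 is below 0 in 2 of 12 tumors.

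Markers of other cell types were mostly low in the Thrsp-high cells, and no summed list was higher there in more than 5 of 12 tumors. Of 12 adipocyte markers, 7 were at 0 UMIs in all 671 cells, including Adipoq (adiponectin), Lep, Plin1 and Cidec. Adig held 308 UMIs and nearly all of the list's total. The summed adipocyte list was 0.197 to 0.568 UMIs per 10000 over the 12 tumors, against 0.256 to 0.458 in the other epithelial cells. It was higher in Thrsp-high cells in 5 tumors. Macrophage markers summed to 0.0674 to 0.954 against 0.204 to 1.08, with Mrc1 at 0, and were higher than in the other cells in 1 of 12 tumors. T cell markers summed to 0.0384 to 0.199 against 0.0701 to 0.335 with no gene at 0, and were higher in 2 of 12 tumors. B cell markers summed to 0 to 0.175 against 0.00928 to 0.289 with Ms4a1 among the genes at 0, and were higher in 5. Endothelial markers summed to 0 to 0.0683 against 0.0120 to 0.0826, with Cdh5, Emcn, Cldn5 and Tie1 at 0, and were higher in 2 tumors. Fibroblast and mural markers summed to 0 to 0.0798 against 0.0316 to 1.498, with Pdgfrb, Rgs5 and Cspg4 at 0, and were higher in 1. The neutrophil list was 0.382 to 9.90 against 0.592 to 3.79, higher in 4 tumors. It consisted almost wholly of S100a8 (1377 UMIs, 93 of them in 1 cell of B3-2), while Csf3r, Cxcr2 and Ly6g were at 0. Schwann cell markers summed to 1.30 to 2.80 against 2.05 to 2.82, higher in 1 tumor. They came from Sox10 (1140 UMIs), Erbb3 (287) and others, with Foxd3 and Ngfr among the genes at 0. Doublets were not called. When every cell with a UMI of 10 defining markers of other cell types was left out, 570 Thrsp-high cells were left and 2653 genes differed from the other epithelial cells, of which 2502 were among the 3139 found with them (below).

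The share of Thrsp-high cells among epithelial cells varied from tumor to tumor. In isotype tumors it ran from 0.931% (10 cells, I1-1) through a median of 4.80% to 12.8% (119 cells, I2-2). In B20-4.1.1 tumors it ran from 0.637% (1 cell, B2-3) through 2.86% to 9.48% (95 cells, B3-1, exact Clopper-Pearson 95% interval 7.74% to 11.5%). The groups overlapped. The isotype pools stood apart, at means of 1.62% in I1 and 9.85% in I2, while the B20-4.1.1 pools had means of 3.47%, 1.58% and 4.24%. The isotype pools also differed in depth, with tumor medians of 2192 to 2423 UMIs per deposited cell in I1 and 6034 to 6582 in I2. Whether depth bears on the share was not tested. I2 and the single tumor B3-1 together held 498 of the 671 cells (74.2%).

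Between treatments, the mean share was 5.73% ± 4.85 (SD, n = 6) with the isotype antibody and 3.10% ± 2.65 (SD, n = 9) with B20-4.1.1, a difference of −2.63 percentage points that the spread between tumors covered (p = 0.2004, exact permutation test over all splits of the tumors, two-sided). Over the 5 pools the same difference had p = 0.6 (exact), where the smallest p possible is 0.1. Without isotype pool 1 the difference was −6.75 points, and without isotype pool 2 it was 1.48 points in the other direction, so 1 isotype pool decided its direction. Each of these leaves a single isotype pool, so only the size is given. The score averaged over all epithelial cells, a measure chosen after seeing the data, was 0.575 ± 0.171 and 0.413 ± 0.132 (difference −0.162, p = 0.0645, exact permutation test, n = 6 and 9).

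**Figure D2:**
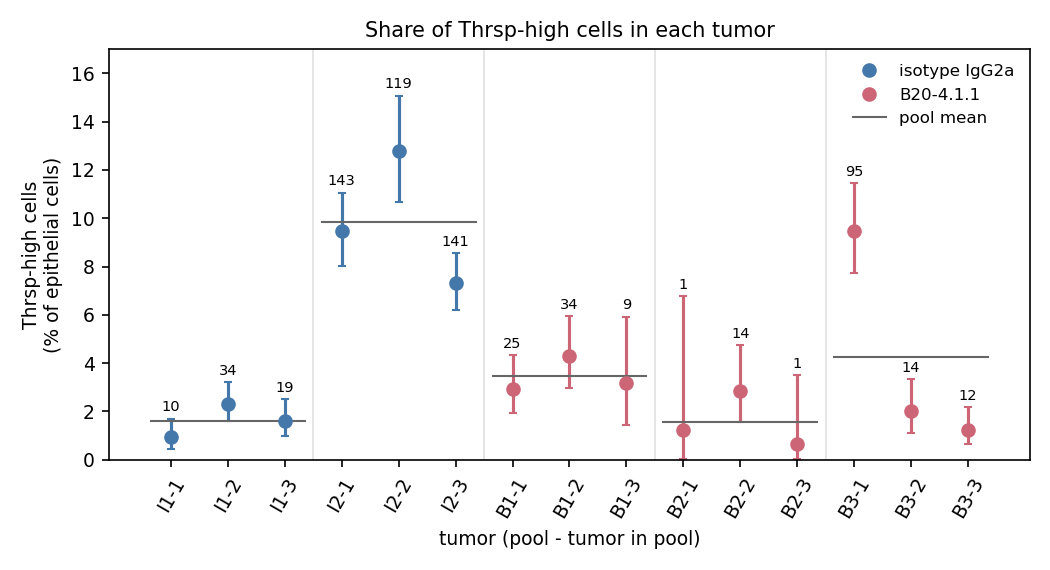
Percentage of epithelial cells that were Thrsp-high (y axis) in each of the 15 tumors, ordered by pool and colored by treatment, with the number of Thrsp-high cells above each point, gray lines at pool means and exact 95% binomial intervals that cover counting error only. The 3 tumors of isotype pool 2 (7.30% to 12.8%) and B3-1 (9.48%) lie above the other 11, which are all at or below 4.29%.

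Thrsp-high cells differed from the other epithelial cells of the same tumor in 3139 of 10452 genes tested (30.0%), 1532 higher (14.7%) and 1607 lower (15.4%), at an adjusted p under 0.05 (edgeR quasi-likelihood test, tumor as a block, Benjamini-Hochberg). The median log2 fold change of all genes was −0.01. Restricting the comparison to cells of 5000 to 15000 UMIs left 1805 genes, leaving out isotype pool 2 left 1854, and thinning every cell to 2500 UMIs before scoring and summing left 976 of 6930. With no normalization factors, 41.9% of the genes called were higher, against 48.8%. By a fixed rule (mean log2 CPM of at least 5 and the same direction in all 12 tumors), 203 genes qualified as higher and 327 as lower, and 9 of the 10 with the largest difference each way are described next. All 20 kept direction and call under each of the 22 alternatives run.

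These 9 higher genes rose 1.96- to 3.37-fold. Levels are in CPM (counts scaled to a common library total with edgeR's normalization factors). Car6, a secreted carbonic anhydrase, ranged over tumors from 160.4 through a median of 249 to 985 CPM in Thrsp-high cells. In the others it ranged from 63.3 through 125 to 233, a log2 fold change of 1.75 ± 0.13 (SE, 3.37-fold, adjusted p = 5.72e-12 by edgeR). The ranges of the 2 sets overlapped, but Car6 was higher in all 12 tumors. Gjb2, the gap junction protein connexin 26, stood at 68.3, 191 and 333 against 33.2, 44.6 and 149 CPM (3.11-fold). Kctd14 stood at 60.8, 107 and 154 against 20.5, 32.6 and 46.5 CPM (3.01-fold, adjusted p = 5.02e-12), with no overlap between the sets. Lao1, an L-amino acid oxidase of milk, was 2.91-fold higher and spread widely, from 69.6 CPM in B1-2 to 1228 in B3-1. Tfrc, the transferrin receptor for iron uptake, was 2.15-fold higher at 35.9, 118 and 435 against 30.3, 58.1 and 216 CPM. Kcnn4, a calcium-activated potassium channel, was at 322, 509.7 and 925 against 201, 255 and 292 CPM (log2 fold change 1.08 ± 0.07, adjusted p = 8.55e-13), and Emid1, an extracellular EMI domain protein, at 249, 336 and 679 against 128, 165 and 208 CPM. Neither Kcnn4 nor Emid1 overlapped between the sets. Duoxa1, the maturation factor of a dual oxidase that makes hydrogen peroxide, was 2.03-fold higher without overlap, and Fam213a, a peroxiredoxin-like protein, was 1.96-fold higher.

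The 9 lower genes showed larger differences. Spp1, which encodes osteopontin (chr5:104435118-104441050, plus strand), stood at 148, 1774 and 6457 CPM in Thrsp-high cells against 6549.7, 9855 and 17864 in the others, a log2 fold change of −2.89 ± 0.24 (7.41-fold lower, adjusted p = 7.83e-11). The highest Thrsp-high value, in B2-2, was still below the lowest of the others. S100a6, a calcium-binding protein, was at 51.2, 203 and 425 against 743, 1369.7 and 3374 CPM (6.99-fold lower), and Lgals3 (galectin 3) at 6.71, 27.2 and 68.0 against 113, 185 and 443 CPM (6.21-fold lower). Krt19, a luminal keratin, was at 33.3, 99.4 and 149 against 275, 489 and 1097 CPM (4.72-fold lower). Ahnak, a very large membrane-associated scaffold, had the smallest p of the 20, at 36.9, 59.6 and 106 against 201, 318 and 428 CPM (log2 fold change −2.22 ± 0.10, adjusted p = 3.06e-16). None of these 5 genes overlapped between the sets. Wfdc12, a whey acidic protein-type protease inhibitor, was 10.5-fold lower, Npy (neuropeptide Y) 7.95-fold, Slpi, a secreted protease inhibitor, 5.67-fold and Creb5, a transcription factor, 4.72-fold lower, with overlapping ranges.

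**Figure D3:**
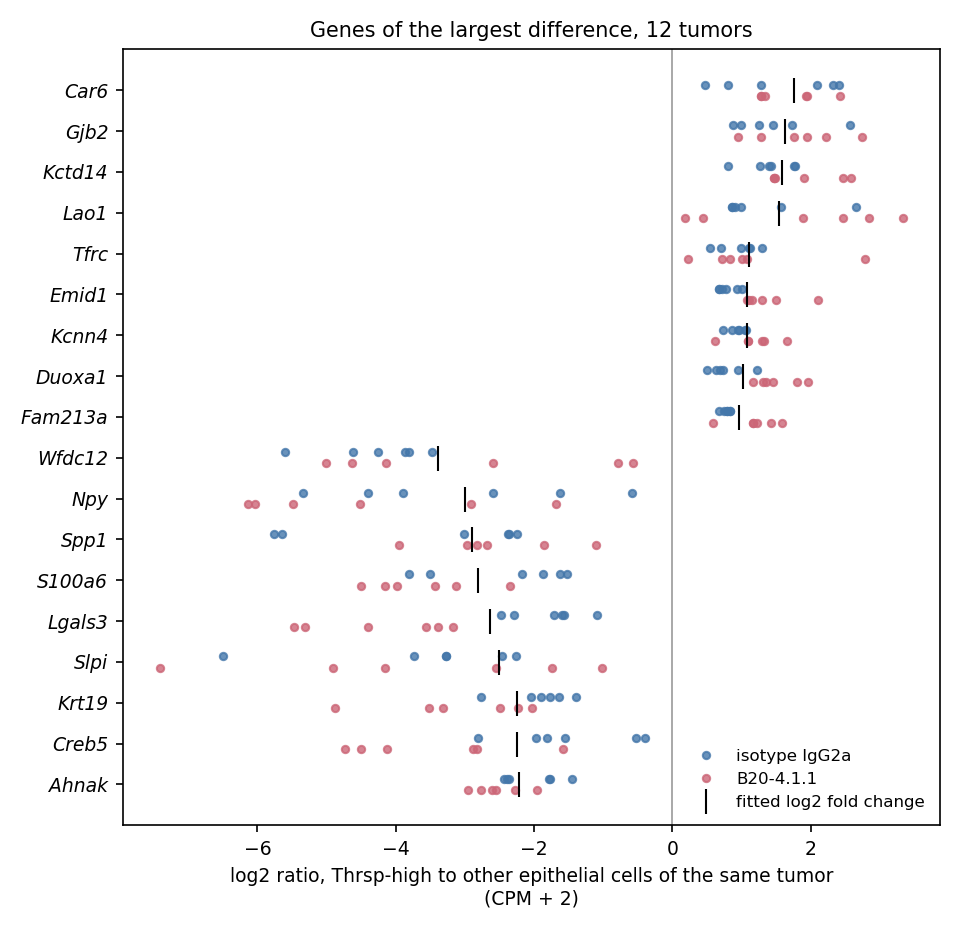
Log2 ratio of CPM (each plus 2) between Thrsp-high and other epithelial cells of the same tumor (x axis) for 18 of the named genes (y axis), 1 point per tumor, colored by treatment, with black ticks at the fitted log2 fold change. Every point of the 9 upper genes lies right of 0 and every point of the 9 lower genes left of it, in all 12 tumors.

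Genes of fatty acid synthesis moved in both directions. Of 24 listed genes, 22 were tested, 5 were higher and 3 lower, and the median log2 fold change was 0.21. The share higher lay somewhat above the 14.7% of all genes and the share lower near their 15.4%. The cells are called Thrsp-high here, after the first gene of the rule, although G0s2 gave slightly more of the score, and scoring on Thrsp alone chose 347 of the same 671 cells (51.7%). Acly rose 1.82-fold (log2 fold change 0.86 ± 0.10, adjusted p = 4.57e-08) from 48.1, 63.4 and 112 CPM in the others to 47.3, 95.6 and 285, with B3-1 highest, and was higher in 11 of 12 tumors. Fasn rose 1.46-fold (0.55 ± 0.11, adjusted p = 0.000368) from 31.1, 38.6 and 56.9 CPM to 26.8, 46.1 and 113, again highest in B3-1. Its call was lost with thinned scores and sums and in the top 2.5% of cells. Scd2, a stearoyl-CoA desaturase, rose 1.52-fold from 133, 171 and 283 CPM to 206, 246 and 494 in 12 of 12 tumors, and Tecr, the last enzyme of the elongation cycle, 1.45-fold in 12 of 12. Acacb rose 2.31-fold but rested on 44 UMIs. Acaca, the cytosolic acetyl-CoA carboxylase, had a log2 fold change of 0.16 ± 0.11 (adjusted p = 0.328), and Scd1 of 0.23 ± 0.10 (adjusted p = 0.0853). Fads3 fell, at a log2 fold change of −0.90. Me1 (malic enzyme) and Elovl7 (an elongase) were called lower at −0.20 and −0.32, but these calls held in only 7 and 13 of 22 alternatives.

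Among genes of triglyceride assembly and lipid droplets, 17 of 28 were tested, 5 were higher, 3 were lower and the median was 0.05. The share lower was near the 15.4% of all genes, of which 14.7% were higher. Lpin1, a phosphatidate phosphatase, rose 1.43-fold, and its call held in 17 of 22 alternatives. Fitm2, which takes part in droplet formation, was called 1.47-fold higher, Gpd1 1.27-fold, Bscl2 (seipin) 1.25-fold and Plin2, a droplet coat protein, 1.24-fold. Those calls were less stable, holding in 13 of 21 alternatives for Fitm2, 10 of 22 each for Gpd1 and Bscl2, and 15 of 22 for Plin2, whose log2 fold change went down to 0.001. Plin2 stood at 119.5, 309.8 and 837 CPM against 149, 231 and 542. Gk (glycerol kinase) and Xdh, needed for milk fat globule release, fell 1.56- and 1.34-fold, and Lpin2 was called 1.52-fold lower, which held in 9 of 21 alternatives. The diacylglycerol acyltransferase Dgat1 had a log2 fold change of 0.02 ± 0.15 (adjusted p = 0.990).

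Lipolysis genes numbered 6 tested of 8, with 3 higher and 1 lower (median 0.36), beside 14.7% and 15.4% of all genes. Abhd5, the coactivator of the lipase that G0s2 inhibits, rose 1.37-fold from 116, 199 and 293 CPM to 131, 276 and 393, higher in 11 of 12 tumors. Its log2 fold change was −0.09 when cells were chosen on the 3 genes without Thrsp. That lipase itself, Pnpla2, had a log2 fold change of 0.11 ± 0.08 (adjusted p = 0.320). Mgll, monoacylglycerol lipase, rose 1.44-fold and Lpl, lipoprotein lipase, 1.95-fold at 112 UMIs in 8 of 12 tumors (held in 16 of 21 alternatives), while Lipa, the lysosomal acid lipase, fell 1.80-fold in 12 of 12 tumors, from 138, 231 and 283 CPM to 81.0, 107 and 202.

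Of 19 genes of fatty acid uptake and activation, 15 were tested, 5 were higher and none lower (median 0.27). The shares over all genes were 14.7% and 15.4%. Dbi, the acyl-CoA-binding protein, was the most abundant and rose 1.42-fold in 12 of 12 tumors, from 2133, 3096 and 4093 CPM to 3284, 4342 and 5512. Acot1, an acyl-CoA thioesterase, rose 1.85-fold in 12 of 12 tumors (adjusted p = 4.37e-09). It has close paralogs, and reads may be shared with them. Fabp5, a fatty acid-binding protein, rose 1.44-fold and Acbd5, which tethers peroxisomes, 1.26-fold. Fabp3 was called at 4.26-fold, but 72 of its 120 UMIs in Thrsp-high cells (60%) were in 1 cell of I1-3, it was higher in 6 of 12 tumors, and its log2 fold change was −0.93 in the top 2.5% of cells.

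Cholesterol synthesis genes had 7 of 21 tested (22 listed) higher and none lower, with a median of 0.32. Among all genes, 14.7% were higher and 15.4% lower. Insig1, which holds the sterol-regulated SREBP complex in the endoplasmic reticulum, was at 6.75, 19.5 and 80.9 CPM against 6.07, 10.7 and 13.9 (log2 fold change 1.29 ± 0.21, 2.45-fold, adjusted p = 1.48e-05, higher in 10 of 12 tumors). Idi1 rose 1.73-fold, Cyp51 1.63-fold, Hsd17b7 1.58-fold (held in 16 of 21 alternatives), Fdps 1.47-fold and Pmvk 1.38-fold, each an enzyme between mevalonate and cholesterol. The early enzyme Hmgcs1 did not pass, with a log2 fold change of 0.11 ± 0.13 (adjusted p = 0.689). Without isotype pool 2, 4 of 21 passed, where 815 of 10459 of all genes were higher and 1039 lower. Of 22 regulators of lipid synthesis, 17 were tested, 4 were higher and none lower (median 0.14). Srebf1, which encodes SREBP-1, rose 1.56-fold from 175, 207 and 322 CPM to 188, 355 and 496 in 11 of 12 tumors (adjusted p = 2.26e-08). Cebpa rose 1.63-fold. Ppargc1a was called 1.81-fold higher on 32 UMIs and Mlx 1.22-fold, which held in 7 of 16 and 11 of 22 alternatives. Srebf2 had a log2 fold change of 0.04 ± 0.13 (adjusted p = 0.854), and Pparg, Mlxipl and Nr1h3 were below the filter on low counts.

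Genes of mitochondrial metabolism leaned higher by small amounts. For the lists in this paragraph, the shares over all genes were 14.7% higher and 15.4% lower. Of 17 genes of the citrate cycle and citrate supply, all were tested, 12 were higher and none lower, at a median of 0.27. Suclg1 (succinyl-CoA ligase) rose 1.31-fold and Mdh1 and Mdh2 (malate dehydrogenases) 1.28- and 1.24-fold, each in at least 11 of 12 tumors, while Cs, citrate synthase, had a log2 fold change of 0.14 ± 0.10 (adjusted p = 0.301). The count was 7 of 17 without isotype pool 2 and in cells of 5000 to 15000 UMIs, 6 without cells with a UMI of Mki67, Top2a, Ccnb1 or Cdk1, and 3 of 16 after thinning. Over all genes, the counts higher were 815 of 10459, 835 of 9755, 1288 of 10091 and 297 of 6930, in the same order. Fatty acid oxidation had 9 of 17 tested (20 listed) higher and none lower (median 0.22), led in p by Echs1 (1.35-fold), Hadh (1.32-fold) and Etfb (1.32-fold). Cpt1a, the gate of fatty acid entry into mitochondria, had −0.18 ± 0.18 (adjusted p = 0.512). That count fell to 6 of 17 without isotype pool 2, 4 of 16 in the UMI window and 1 of 13 after thinning. The counts over all genes in these settings are those above. In the pentose phosphate and NADPH list, 11 of 12 were tested, 4 were higher and 1 lower (median 0.21), with transaldolase (Taldo1) up 1.62-fold in 12 of 12 tumors, from 270, 388 and 523 CPM to 387, 669 and 949.8. G6pdx, the entry enzyme, had −0.05 ± 0.15 (adjusted p = 0.851). In glycolysis, 17 of 18 were tested, 2 were higher (Eno1 and Ldhb) and 5 lower (Pfkp, Aldoa, Tpi1, Pgk1 and Pkm), with a median of 0.03. The share higher was near that of all genes, and Pfkp was the most changed at 1.70-fold lower. The calls of Eno1, Tpi1, Pgk1 and Ldhb held in 7, 13, 14 and 15 of 22 alternatives. Without isotype pool 2, 0 were higher and 6 lower, and without B20-4.1.1 pool 1, 0 and 3. Over all genes these were 815 and 1039 of 10459, and 1342 and 1436 of 10471.

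**Figure D4:**
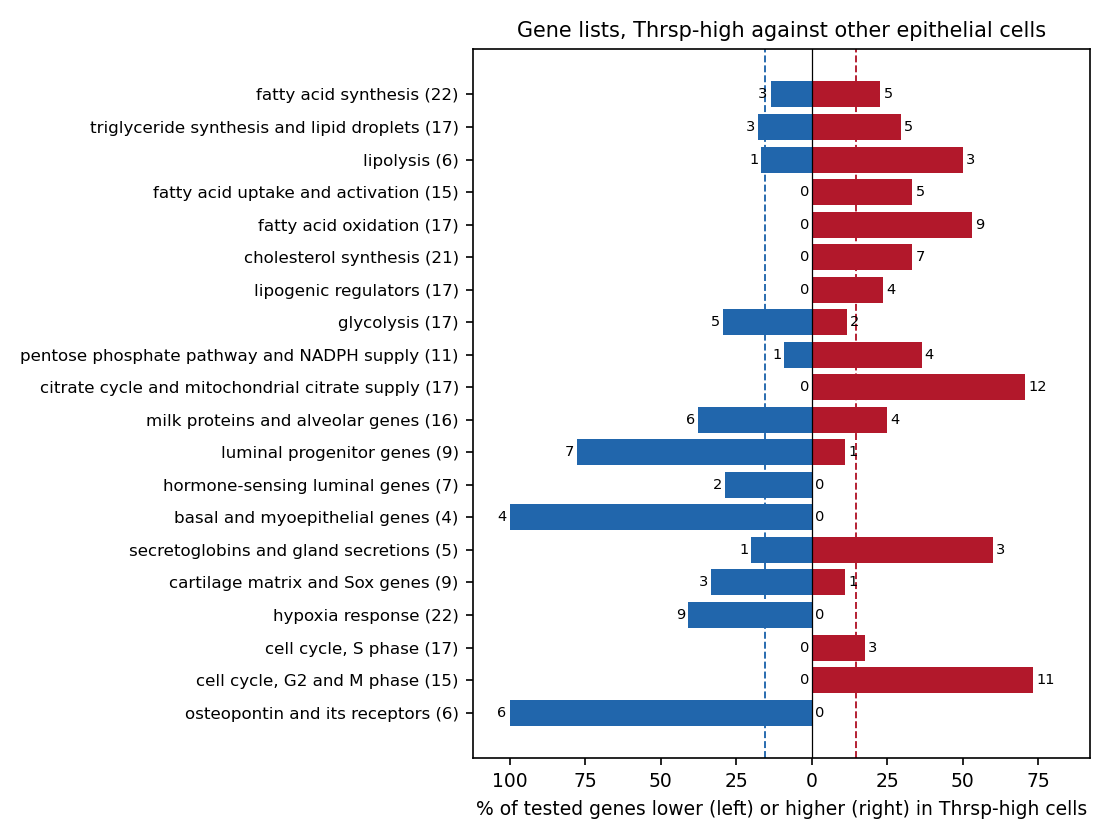
For each gene list (number of tested genes in brackets, y axis), the percentage of tested genes lower (left of 0) or higher (right of 0) in Thrsp-high cells (x axis), with the gene count at each bar's end and dashed lines at the share of all genes tested, 14.7% higher and 15.4% lower. The citrate cycle and the G2 and M phase lists reach furthest right, and the luminal progenitor, basal and osteopontin lists furthest left.

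Several genes of luminal progenitor and basal cells were lower. The background for these lists is 14.7% higher and 15.4% lower among all genes. Of 9 luminal progenitor genes, all tested, 7 were lower and 1 higher, at a median of −0.85. Kit, a receptor tyrosine kinase, fell 2.25-fold from 202, 292 and 356 CPM to 71.9, 116 and 226, and Cd14 2.98-fold from 168, 345 and 480 CPM to 28.5, 102 and 282, both in 12 of 12 tumors. Aldh1a3, a retinaldehyde dehydrogenase, was at 0, 0 and 27.9 CPM against 15.8, 44.9 and 83.2 (log2 fold change −3.998 ± 0.32) and Sox9 fell 1.44-fold. Of 13 basal and myoepithelial genes only 4 were tested, and all 4 were lower (median −1.87): Krt14 4.34-fold, Vim 3.08-fold, Trp63 2.16-fold (held in 12 of 18 alternatives) and Krt17. Krt17 had 4 UMIs in all 671 cells. Pooled over all 15 tumors rather than within each, its ratio to the other cells was 0.0220 (exact 95% counting interval 0.00599 to 0.0564). That interval leaves out the spread between tumors. Fitted within tumors, the log2 fold change of Krt17 was −5.34 ± 0.36, and it was lower in 12 of 12. Of 12 hormone-sensing genes 7 were tested and 2 were lower (median −0.14), Ly6a and the EGF receptor ligand Areg. Areg had 2 UMIs in Thrsp-high cells, a ratio of 0.0154 (0.00186 to 0.0556) when pooled in the same way. Within tumors its log2 fold change was −5.48 ± 0.48. Esr1 (estrogen receptor) did not pass, and Pgr and Foxa1 were below the filter.

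Milk and alveolar genes were mixed, with 16 of 17 tested, 4 higher and 6 lower (median −0.12). Among all genes, 14.7% were higher and 15.4% lower. Wap, whey acidic protein, rose 1.90-fold from 77.3, 228 and 1681 CPM to 96.7, 542 and 2488 in 11 of 12 tumors. That call was lost in the top 2.5% of cells, without cells holding a marker of another cell type, without the tumor block and on the score without Thrsp, and its log2 fold change went down to 0.012. Stat5a, a transcription factor of lactation, rose 1.40-fold. Csn3 (κ-casein) fell 1.21-fold, Lalba (α-lactalbumin) 1.20-fold (held in 14 of 22 alternatives), Mfge8 1.73-fold and Ltf (lactoferrin) 2.57-fold, from 1118, 1715 and 2767 CPM to 141, 613 and 1494. Csn2 (β-casein) had a log2 fold change of 0.52 ± 0.44 (adjusted p = 0.409). Pip was called 4.02-fold higher but was higher in 6 tumors and lower in 6, with 20% of its UMIs in 1 cell, and had −1.43 when cells were chosen on Thrsp alone. Of 17 secretoglobins and gland secretions 5 were tested, 3 higher and 1 lower (median 0.75). Aqp5, a water channel of secretory glands, rose 1.67-fold from 193, 461 and 633 CPM to 336, 747 and 1331 in 11 of 12 tumors. Scgb2b27 rose 1.68-fold, but has near-identical copies that can share reads, and had −0.58 when cells were chosen on Thrsp alone. Of 18 cartilage matrix and Sox genes 9 were tested, 1 higher (Col9a1, 1.40-fold) and 3 lower (Sox6, Sox9 and Col11a1), at a median of −0.01. The share higher there was near that of all genes.

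Osteopontin receptors were lower along with Spp1. The share lower among all genes was 15.4%, and 14.7% were higher. All 6 tested genes of that list of 8 were lower (median −1.01). Cd44 fell 1.91-fold from 34.0, 53.8 and 66.3 CPM to 11.4, 23.0 and 58.3, the integrin subunits Itgav 2.13-fold and Itgb3 2.23-fold, Itgb1 1.18-fold and Itgb5 1.34-fold, the last held in 10 of 22 alternatives. After thinning, 4 of 6 passed, where 679 of 6930 of all genes were lower. Hypoxia response genes had 9 of 22 tested (24 listed) lower and none higher (median −0.33). Vegfa, the target of B20-4.1.1, fell 1.72-fold from 26.4, 37.6 and 62.5 CPM to 0, 18.3 and 47.1 in 12 of 12 tumors (log2 fold change −0.78 ± 0.15, adjusted p = 0.000133), and passed under all 22 alternatives. Ndrg1, a stress-response gene, fell 2.18-fold, Adm (adrenomedullin) 3.28-fold on 19 UMIs, and P4ha1 and P4ha2 (collagen prolyl hydroxylases) 1.72- and 2.76-fold. The count was 3 of 16 after thinning and 6 of 22 in the UMI window. Over all genes, 679 of 6930 and 970 of 9755 were lower there. Of 5 VEGF ligands 3 were tested and only Vegfa passed. The hypoxia list as a per-cell mean score was 0.168 in Thrsp-high cells and 0.186 in the others, a difference of −0.0174 over 12 tumors that did not pass (adjusted p = 0.131, exact sign-flip test over 6 measures), and −0.0194 after thinning, which did (adjusted p = 0.0403, exact). Without isotype pool 1 it was −0.0276 and also passed (adjusted p = 0.0293, exact).

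Thrsp-high cells held more UMIs, and several G2 and M phase genes were higher. The median per tumor was 12428 ± 3576 UMIs per cell (SD, n = 12 tumors) against 8871 ± 1475, more in 12 of 12 tumors (adjusted p = 0.00293, exact sign-flip test). The cells were chosen on unthinned counts, so depth could enter the choice. Scored on cells thinned to 2500 UMIs, the top 5% held 488 of the 671 cells (72.7%). The depth of that choice was not tested. Thinned to 2500 UMIs, Thrsp-high cells held 1159 genes per cell against 1163 (adjusted p = 0.367, exact sign-flip test). Mitochondrial UMIs were 4.81% against 4.59% (adjusted p = 0.346, exact). G2 and M phase genes had 11 of 15 tested (20 listed) higher and none lower (median 0.97), among them Birc5 (survivin, 2.34-fold), Ccnb2 (cyclin B2, 2.30-fold) and Tpx2 (a spindle protein, 2.13-fold). Birc5 was at 0, 48.5 and 75.4 CPM against 2.26, 16.4 and 34.4, with I1-1 at 0. The count was 4 of 14 without isotype pool 2 and 6 of 10 in the UMI window. Over all genes, 815 of 10459 and 835 of 9755 were higher there. S phase genes had 3 of 17 tested (18 listed) higher (Rrm2, Dut and Hells) and none lower (median 0.27), near the 14.7% of all genes. As per-cell scores, the G2 and M list was 0.0501 against 0.0252 (difference 0.0249, higher in 10 of 12 tumors, adjusted p = 0.0166, exact) and passed after thinning (adjusted p = 0.0403, exact). The S list was 0.0915 against 0.0752 (adjusted p = 0.0166, exact) and did not pass after thinning (difference 0.00639, adjusted p = 0.177, exact). Both scores lost their call without isotype pool 2, B20-4.1.1 pool 1 or B20-4.1.1 pool 3 (adjusted p = 0.102, 0.0664 and 0.0703 for each score, exact). UMI content and G2 and M phase genes moved with the gene differences above, in the same cells. With cells that had a UMI of Mki67, Top2a, Ccnb1 or Cdk1 left out, which left 530 Thrsp-high cells, 2661 genes differed, of which 2446 were among the 3139.

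For comparison, 3 other epithelial sets of 671 cells each were formed in the same way, and were compared by level only. They were scored on Scgb2b27, Aqp5 and Col9a1 (secretoglobin set), on Wap, Csn2, Csn3 and Csn1s1 (milk set), and on Krt14 and Slpi (Krt14 set). The Thrsp-high cells shared 80 cells (11.9% of each) with the secretoglobin set, 63 (9.39%) with the milk set and 4 (0.596%) with the Krt14 set. Median UMIs per 10000 of Acly over tumors were 0.884 in Thrsp-high cells, 0.5996 in the secretoglobin, 1.05 in the milk and 0.412 in the Krt14 set, and of Fasn 0.429, 0.508, 0.479 and 0.216. Scd2 stood at 2.48, 2.58, 1.40 and 0.963 in the same order. The medians were over the 12, 11, 10 and 14 tumors with at least 10 cells of each set, so the tumors differ and no order of the sets is drawn from them. Thrsp itself had a median of 19.9 in Thrsp-high cells, 6.01 in the milk, 3.62 in the secretoglobin and 0.709 in the Krt14 set.

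The gap between Thrsp-high and other epithelial cells differed between treatments for 4 of 10452 genes (0.0383%, edgeR interaction test, 503 at an unadjusted p under 0.05), each with a more negative gap under B20-4.1.1. Lgals3 had log2 ratios of −1.79 ± 0.51 (SD, n = 6) in isotype and −4.22 ± 1.00 (n = 6) in B20-4.1.1 tumors, with no overlap (difference −2.05 ± 0.28 SE, adjusted p = 0.000268 by edgeR). Its CPM in Thrsp-high cells was 25.1, 38.4 and 68.0 in isotype and 6.71, 17.9 and 40.5 in B20-4.1.1 tumors, and in the other epithelial cells 113, 139 and 149.6 and 219.8, 363 and 443, so the other cells also differed between treatments. Tm4sf1, a tetraspanin-like membrane protein, had ratios of −1.498 ± 1.00 and −3.45 ± 1.01 (difference −2.12 ± 0.31, adjusted p = 0.000678). The median CPM of Tm4sf1 in isotype and B20-4.1.1 tumors was 175 and 45.8 in Thrsp-high cells, and 325 and 481 in the others. S100a6 had −2.42 ± 0.99 and −3.59 ± 0.78 (difference −1.43 ± 0.28, adjusted p = 0.0352). In the other epithelial cells S100a6 ranged from 743 to 1312 CPM in isotype and from 1427 to 3374 in B20-4.1.1 tumors, without overlap. In Thrsp-high cells the ranges overlapped, at 51.2 to 425 and 125 to 299 CPM. Slc12a2, a sodium, potassium and chloride cotransporter, had 0.12 ± 0.45 and −0.98 ± 0.59 (difference −1.09 ± 0.20, adjusted p = 0.0286). Its median CPM in isotype and B20-4.1.1 tumors was 231 and 84.1 in Thrsp-high cells, and 209 and 146 in the others. None of the 4 calls held without isotype pool 2, where 2 other genes passed.

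**Figure D5:**
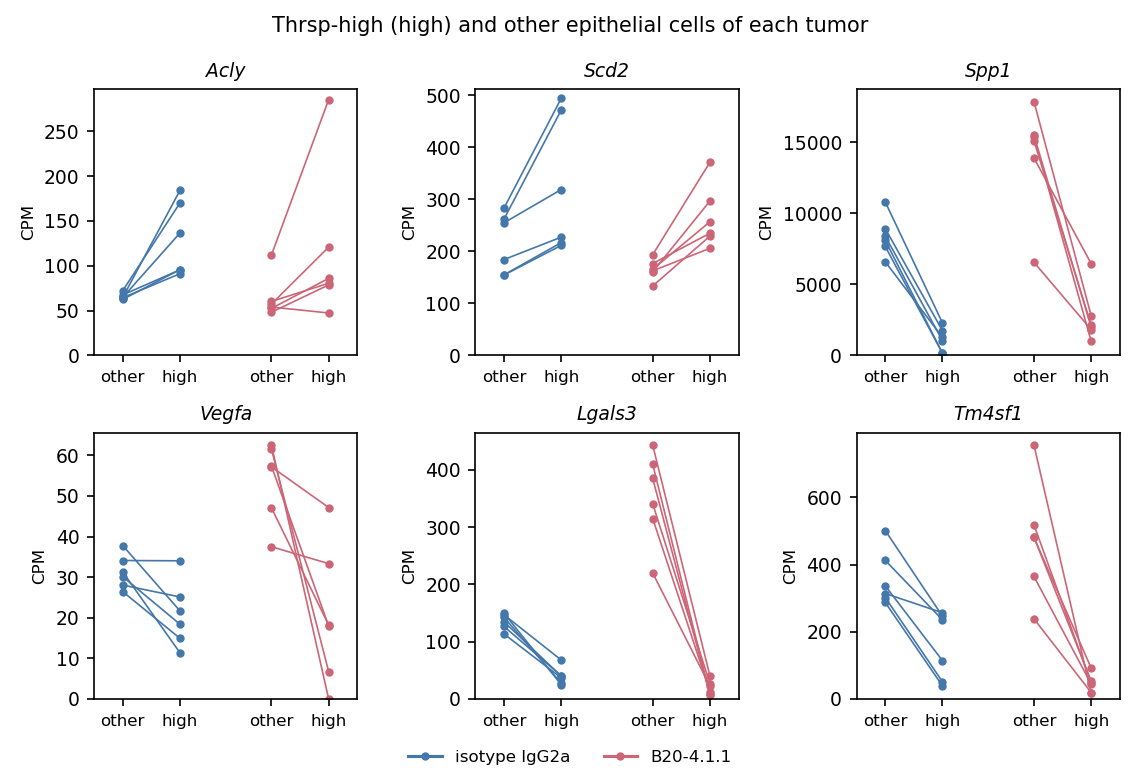
CPM (y axes, starting at 0) of Acly, Scd2, Spp1, Vegfa, Lgals3 and Tm4sf1 in the other and the Thrsp-high epithelial cells of each of 12 tumors, joined by a line per tumor, with isotype tumors left and B20-4.1.1 tumors right in each panel. Scd2 is higher in Thrsp-high cells in all 12 tumors and Acly in 11, while Spp1, Vegfa, Lgals3 and Tm4sf1 are lower in all 12.

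Within the Thrsp-high cells, 0 of 4412 genes (0%) differed between treatments by edgeR (smallest adjusted p = 0.0755, 420 genes at an unadjusted p under 0.05), and 15 by DESeq2. Tumors of the groups did not overlap for 33 genes (0.748%). Spp1 was at 148, 1149 and 2282 CPM in isotype and 992, 2059 and 6457 in B20-4.1.1 tumors (log2 fold change 1.30 ± 0.51, adjusted p = 0.402 by edgeR), with overlapping ranges. Acly, Fasn and Scd2 had log2 fold changes of 0.08 ± 0.33, 0.04 ± 0.34 and −0.29 ± 0.25 (adjusted p = 0.961, 0.984 and 0.718). Leaving out B20-4.1.1 pool 1 gave 21 genes, so the count rested on which pools were included. Without isotype pool 2 only I1 was left on the isotype side, so no count is given for that setting. Thrsp-high cells of I1 held 7.26% to 8.36% mitochondrial UMIs by tumor, against 2.81% to 4.52% in the other tumors fitted.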

How the data were processed

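The authors deposited raw UMI count matrices of genes and multiplexing oligonucleotides, 1 per tumor. The matrix headers name Cell Ranger 6.1.2, and the submitters' processing notes list Cell Ranger, bcl2fastq, Seurat 4.3.0 and mm10. All 31053 gene rows were used. The share of a tumor's oligonucleotide counts from its own tags was 84.3% to 97.6%. Cells were gated and scored as stated in the report. Counts were summed per tumor, set and gene and tested with edgeR 4.0.16 (filterByExpr, TMM factors, glmQLFit) in R 4.3.3 with limma 3.58.1, and DESeq2 1.42.0 as an alternative. The fit was tested on simulated data. CPM were computed with edgeR using the TMM factors. Scores and exact tests were computed with Python 3.11.15 and numpy 2.4.6, and binomial intervals with scipy 1.17.1. The 12 tumors with at least 10 Thrsp-high cells entered the fits. The 4 score genes were left out of the genes tested. Named genes exclude the score genes, Epcam, Krt8, Krt18 and Ptprc, mitochondrial and ribosomal protein genes, and symbols of predicted genes. A few genes that these rules or lists name are not reported here. Of interaction genes all 4 called are named. The cells and lists were chosen with earlier results of these data known. Replicates are tumors, each of a different mouse per the labels, told apart by their oligonucleotides within a pool. Doublets were not called, and counts include RNA free in the droplets. Intervals cover counting error only. Promoters come from RefSeq. No genome sequence was used here.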

Additional observations from a re-analysis of the deposited data

Results flagged for a closer look

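Of 58 groups of tumor values examined for a single distant value (Dixon's test at the 95% level, which chance alone flags in about 1 group in 20), 5 (8.62%) held one. The share of Thrsp-high cells in B3-1, 9.48%, was far from the other B20-4.1.1 tumors. The log2 ratio of Tfrc between Thrsp-high and other cells in B2-2, 2.78, was far above the other B20-4.1.1 tumors. In I1-3 the log2 ratio of Slpi, −6.50, was far below the other isotype tumors, and the gene had 0 UMIs in its 19 Thrsp-high cells. In I1-1, with 10 Thrsp-high cells, the excess of UMIs per cell, 8026.5, was far above the other isotype tumors, and the difference of Scrg1 in cells chosen without it, −0.0383, far below them.

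The gap between Thrsp-high and other epithelial cells differed between treatments, by edgeR's interaction test, for Tm4sf1 (−2.12), Lgals3 (−2.05), S100a6 (−1.43) and Slc12a2 (−1.09), each the log2 gap in B20-4.1.1 minus that in isotype tumors. Of 9 alternatives, the call held in 7, 8, 6 and 5. All 4 calls were lost without isotype pool 2. Without B20-4.1.1 pool 3, Tm4sf1, S100a6 and Slc12a2 were lost, and without pool 2, S100a6 and Slc12a2 were. Pool and treatment cannot be told apart here.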

How the results depend on the processing

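No paired analysis was possible because the replicate numbers of pools were given in the order of the records and pair no samples across treatments. Against 3139 genes between Thrsp-high and other cells, thinned scores and sums gave 976 (906 shared), cells of 5000 to 15000 UMIs, chosen after seeing the data, 1805, and leaving out 1 pool 1854 (isotype pool 2) to 3099. The tool, normalization, filter, gate, cut and score alternatives stayed within 1.5 times. Without a filter on low counts, 33.6% of 3211 calls were higher. For the 4 interaction genes, no filter gave 67 and leaving out 1 pool 2 to 12. For treatment within Thrsp-high cells, against 0, no filter gave 89, at least 20 cells per tumor 1, DESeq2 15, sums per pool 14, a random pool block 0, and leaving out 1 pool 0 to 646. The difference in share ran from −6.75 to 1.48 without 1 pool, both with a single isotype pool left. Without 1 pool, genes per thinned cell differed by −7.76 to 0.0891, mitochondrial percentage by −0.0844 to 0.422, hypoxia score by −0.0276 to −0.00564, S score by 0.0133 to 0.0188 and G2 and M score by 0.0220 to 0.0284. The hypoxia score passed without isotype pool 1, and the S and G2 and M scores each lost their call without isotype pool 2, B20-4.1.1 pool 1 or pool 3. After thinning, the hypoxia score passed (−0.0194) and the S score did not (0.00639). Log2 fold changes of opposite sign were, on the score without Thrsp, Abhd5 −0.095, Aldoa 0.0060, Idh3a −0.0146, Elf5 −0.0060, Tspan8 0.23 and S100a9 0.33, on Thrsp alone, Pip −1.43, Scgb2b27 −0.58 and Mki67 −0.15, in the top 2.5%, Fabp3 −0.93, in the UMI window, Acaa2 −0.033, and thinned, Idh3a −0.022. The causes were not tested. Tumors with 10 to 25 Thrsp-high cells limit the low genes, many of which had 0 UMIs there.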
